A study of Mus musculus with 4 samples.

Results

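Distal convoluted tubule (DCT) nuclei with no detected transcript of the β and γ subunits of the epithelial sodium channel were examined in the kidneys of 4 mice. They were chosen by their own counts: at least 3 unique molecular identifiers (UMIs) of *Slc12a3*, the thiazide-sensitive sodium chloride cotransporter, at most 2 UMIs of *Slc12a1*, the cotransporter of the thick ascending limb (TAL), and 0 UMIs of *Scnn1b* and of *Scnn1g*. The rule found 909 nuclei among the 27343 that were kept. Because these 4 genes selected the nuclei, their levels are given as a description, with no test.

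The DCT lies in the cortex between the TAL and the connecting tubule (CNT) and reabsorbs sodium chloride through the product of *Slc12a3*, which the WNK and SPAK kinases switch on by phosphorylation. It takes up magnesium through TRPM6 channels, and in its late stretch, next to the CNT, it also carries calcium from urine to blood with a calcium channel, calbindin and a sodium calcium exchanger. The late stretch gains the epithelial sodium channel and the response to aldosterone.

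The study asked what the transcription factor TFAP2A does in the collecting duct, and nuclei from kidneys of male mice aged 12 weeks were sequenced with 1 library per mouse. The 2 control mice had the labelled genotype Cre-,Tfap2aFlox/Flox and so carried the same floxed *Tfap2a* alleles on both chromosomes without Cre. The 2 *Hoxb7Cre+;Tfap2a fl/fl* mice (cKO), labelled Cre+,Tfap2aFlox/Flox, carried the Cre as well. The labels give no strain and no treatment. *Hoxb7Cre* is active in the ureteric bud and the collecting ducts that grow from it, whereas the DCT descends from nephron progenitors, so the DCT is not a segment in which this Cre is known to act. Because cortex was removed before nuclei were isolated, in favour of medullary cells, the DCT nuclei came from the cortex that remained.

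Values below are given in the order control 1, control 2, cKO 1 and cKO 2. The libraries held 42138345, 24998797, 44964099 and 22179410 UMIs, and 7738, 5430, 7998 and 6177 nuclei were kept. Levels are the UMIs of a gene summed over the nuclei of a mouse and scaled by all their UMIs (CPM). DCT nuclei numbered 256, 141, 305 and 207, with summed UMIs of 634105, 348706, 731990 and 512035. Depth per DCT nucleus was similar, with medians of 2090.0, 2216, 2116 and 2244 UMIs. Any pair of libraries shared between 7 and 18 barcodes among the nuclei kept and 0 among DCT nuclei.

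The libraries with replicate number 1 stood apart from those with number 2 in both genotypes. Median mitochondrial UMIs in DCT nuclei were 1.59, 0.560, 1.00 and 0.233%. The 10 proximal tubule markers, all 10 detected, summed to 2867, 1213, 2506 and 1314 CPM in DCT nuclei, and *Slc34a1*, the sodium phosphate cotransporter, had the most UMIs of the list. If all of those UMIs were free RNA, free RNA would make up 34.2, 15.6, 28.3 and 16.2% of the UMIs in DCT nuclei. Both measures separated the replicate numbers more than the genotypes. Alternatives with fewer mitochondrial UMIs and with free RNA subtracted are given below. The part of these measures in the results was otherwise not tested.

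*Slc12a3* marked the nuclei far above the minimum of the rule. The median DCT nucleus had 26, 36, 25 and 35 UMIs of *Slc12a3*, and 94.1, 99.3, 92.5 and 98.1% of the nuclei had at least 10. Summed over nuclei, *Slc12a3* was at 11430.3, 15239, 11312 and 14716 CPM, against a mean of 14.1 CPM in proximal tubule nuclei. Proximal tubule nuclei were chosen with at most 2 UMIs of *Slc12a3*, so both sides of this contrast follow in part from the choice.

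Nuclei just inside the minimum were few and had less *Trpm6*. Those with 3 to 5 UMIs of *Slc12a3* numbered 22, of which 13 came from cKO 1, and had 462 CPM of *Trpm6* and 6276 CPM of *Slc8a1*. Nuclei just outside, with 2 UMIs, numbered 41 and had 32.1 CPM of *Trpm6* and 1619.7 CPM of *Lrp2*, a proximal tubule receptor. Nuclei with 6 or more UMIs numbered 887 and had 2345 CPM of *Trpm6*. *Lrp2* was also high just inside the minimum, at 1046 CPM with 3 to 5 UMIs, against 305 CPM with 6 or more. At the other limit, 157 DCT nuclei had 1 or 2 UMIs of *Slc12a1*. The 19 nuclei left out for 3 or more UMIs of *Slc12a1* had 7054 CPM of *Umod*, against 2787 CPM in the nuclei with 1 or 2.

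Markers that the rule did not use were present. *Trpm6*, the magnesium channel of this segment, was at 2039, 2455, 2149 and 2777 CPM, and *Pvalb*, the calcium-binding protein parvalbumin, was at 654, 502, 585 and 436 CPM. *Tmem52b*, a membrane protein gene of the distal nephron, was at 702, 631, 754 and 785 CPM. In proximal tubule nuclei the means over the 4 mice were 3.83 CPM for *Trpm6*, 6.67 CPM for *Pvalb* and 6.09 CPM for *Tmem52b*. All 3 genes were therefore far above free RNA. *Trpm6* and *Pvalb* overlapped between genotypes, and *Tmem52b* was higher in both cKO mice than in both controls.

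At least 1 UMI of *Trpm6* was seen in 94.5, 96.5, 90.2 and 95.2% of DCT nuclei. The same share was 0.737, 2.32, 0.867 and 0.985% in proximal tubule nuclei, which had more UMIs per nucleus (medians of 3051, 3724.5, 3043.5 and 3380.0). After thinning every nucleus to 1000 UMIs, which left out 6, 2, 11 and 4 shallower DCT nuclei, *Trpm6* was seen in 84.4, 87.1, 81.6 and 89.7% of DCT nuclei and in 0.199, 0.674, 0.208 and 0.451% of proximal tubule nuclei. *Pvalb* was seen in fewer DCT nuclei, 68.0, 58.2, 62.3 and 58.5%, against 3.19, 1.08, 3.31 and 0.895% of proximal tubule nuclei. Thinned, those shares of *Pvalb* were 46.0, 35.3, 38.4 and 35.5% and 1.29, 0.363, 1.27 and 0.210%.

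Genes were ranked by the ratio of CPM in DCT nuclei to CPM in all other nuclei, with 10 CPM added. The roles given beside them are known ones, and no grouping of them was tested. The ratios are means ± SD over n = 4 mice and describe nuclei chosen by *Slc12a3*, so they were not tested. Behind *Slc12a3* (100.3 ± 13.6) stood *Trpm6* (53.2 ± 6.37), *Fgf13*, an intracellular relative of the fibroblast growth factors (42.4 ± 9.36), and *Pvalb* (26.8 ± 4.17). *Fgf13* averaged 549 CPM in DCT nuclei, 105 CPM in late DCT nuclei, which are nuclei that pass the same limits on *Slc12a3* and *Slc12a1* but have at least 1 UMI of *Scnn1b* or *Scnn1g*, and 0 CPM in CNT nuclei. Among regulators of the cotransporter, *Klhl3*, the adaptor that delivers WNK kinases for degradation, had a ratio of 20.4 ± 2.45 and *Wnk1* of 14.3 ± 2.31.

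Transcriptional regulators among the leading genes were *Tox3* (19.1 ± 2.29), *Tsc22d1* (16.6 ± 2.40) and *Sall3* (13.1 ± 2.30). Signalling and secretion were represented by *Cadps2*, which primes vesicles for release (25.03 ± 4.02), the phosphodiesterase *Pde10a* (18.1 ± 4.23), the prostaglandin F receptor *Ptgfr* (17.7 ± 4.40), the secreted Wnt inhibitor *Sfrp1* (14.5 ± 1.40) and the kinase *Cdk14* (13.5 ± 1.46). The other leading genes were *Cwh43*, *Cables1*, *Abca13*, *Gm15848*, *Hmgcll1* and *Calb1*, with ratios between 12.2 and 18.3. *Ptgfr*, *Gm15848* and *Hmgcll1* averaged 514, 204 and 208 CPM in DCT nuclei and 183, 43.7 and 79.4 CPM in late DCT nuclei. *Tox3*, *Sfrp1* and *Wnk1*, by contrast, averaged 1036, 579.7 and 6242 CPM in DCT nuclei and 1142, 649 and 6905 CPM in late DCT nuclei.

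**Figure D1:**
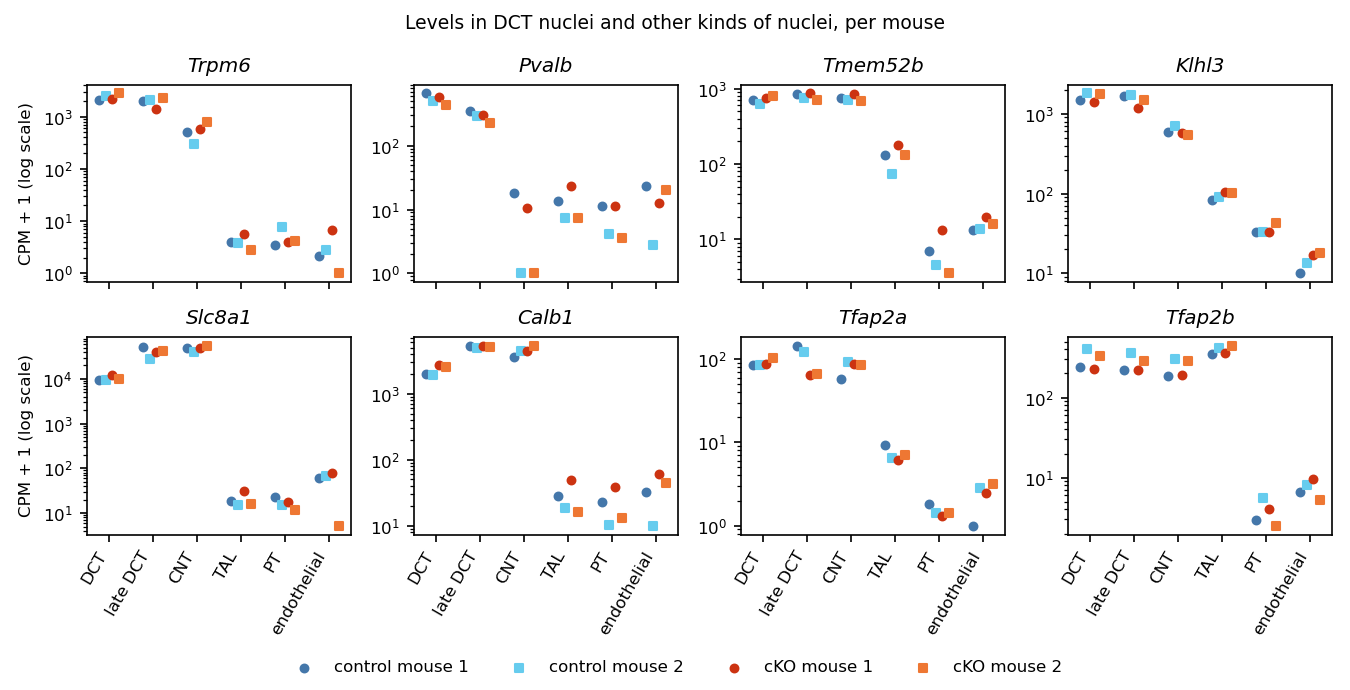
Levels of marker genes by kind of nucleus. Each point is 1 mouse in CPM on a log axis. *Slc8a1* and *Calb1* are higher in late DCT and CNT nuclei than in DCT nuclei, and *Pvalb* is low in CNT nuclei. CNT nuclei were chosen in part by their UMIs of *Slc8a1* and *Calb1*.

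The neighbouring segments shared part of these genes. Late DCT nuclei had means of 1929.5 CPM of *Trpm6*, 1520.1 CPM of *Klhl3* and 292 CPM of *Pvalb*, against 2355, 1608 and 544 CPM in DCT nuclei. In CNT nuclei, chosen by UMIs of *Scnn1b* or *Scnn1g* with *Calb1* or *Slc8a1* and with few or no UMIs of the cotransporters, *Trpm6* averaged 550.2 CPM and *Klhl3* 599 CPM, while *Pvalb* averaged 6.60 CPM. *Tmem52b* did not set DCT nuclei apart from late DCT and CNT nuclei, with 718, 789 and 750.3 CPM in that order. In TAL nuclei it was lower, at 128 CPM. TAL nuclei, chosen by *Slc12a1*, had 3.12 CPM of *Trpm6* and 94.1 CPM of *Klhl3*. *Pvalb* thus divided DCT from CNT nuclei most sharply of the 3. These differences follow in part from how the nuclei were chosen and were not tested.

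The rule covers only the β and γ subunits, and 0 UMIs do not show that they were absent. Late DCT nuclei, chosen for at least 1 such UMI, averaged 389 CPM of *Scnn1b* and 224 CPM of *Scnn1g*, so that a nucleus of the depth found here can miss both. *Scnn1a*, the α subunit of the epithelial sodium channel, was not part of it and was at 269.7, 221, 250.0 and 332 CPM in DCT nuclei, against 17.1, 21.4, 14.996 and 17.7 CPM in proximal tubule nuclei. It was seen in 46.5, 39.0, 43.3 and 56.5% of DCT nuclei and in 5.09, 7.17, 4.31 and 5.46% of proximal tubule nuclei. Thinned, these shares were 26.0, 18.7, 21.4 and 27.1% and 1.99, 1.97, 1.58 and 1.56%. The α subunit was therefore present above free RNA in every mouse. *Hsd11b2*, the enzyme that protects the mineralocorticoid receptor from glucocorticoids, was at 9.46, 8.60, 26.0 and 7.81 CPM in DCT nuclei, within the range of proximal tubule nuclei for all mice but cKO 1 (8.81, 8.14, 13.8 and 3.97 CPM), and averaged 145 CPM in late DCT and 889 CPM in CNT nuclei.

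The calcium exchanger *Slc8a1* varied widely among the nuclei. This basolateral sodium calcium exchanger was at 9281, 9478, 12222 and 10189 CPM, and 415 of the nuclei had at most 2 UMIs of it while 148 had at least 30. This division by *Slc8a1* was made after its values were seen, and its limits divide a continuous range. Nuclei with at least 30 UMIs made up 13.3, 14.9, 17.4 and 19.3% of the DCT nuclei, 3, 5, 2 and 8 nuclei lay near the limit with 25 to 35 UMIs, and the highest nucleus of each mouse had 442, 277, 549 and 260 UMIs. Late DCT nuclei reached 30 UMIs in 68.6, 47.4, 78.8 and 75.6% of cases. In proximal tubule nuclei the same share was 0.0492, 0, 0 and 0%. Thinned to 1000 UMIs, 12.8, 13.7, 17.3 and 17.2% of the DCT nuclei had at least 15 UMIs of *Slc8a1*.

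Some other calcium genes moved with *Slc8a1* among nuclei that all lacked UMIs of *Scnn1b* and *Scnn1g*. From the nuclei with at most 2 UMIs of *Slc8a1* to those with at least 30, the mean level of *Calb1*, calbindin, went from 811 to 6063 CPM, that of *Trpv5*, the apical calcium channel, from 2.13 to 125 CPM, and that of *S100g*, a further calcium-binding protein, from 274 to 1990.0 CPM. *Kl*, the FGF23 coreceptor klotho, went from 599.7 to 2173 CPM. *Trpv5* and *S100g* were high only in the last range, since nuclei with 10 to 29 UMIs of *Slc8a1* still had 2.15 and 138 CPM, whereas *Calb1* stood at 1921 CPM with 3 to 9 UMIs and at 2639 CPM with 10 to 29. Median depth was 2055, 2249, 2399.5 and 2391.5 UMIs over the 4 ranges. *Atp2b1*, a calcium pump, did not follow, with 214, 182, 200.1 and 201 CPM. In late DCT nuclei *Calb1* averaged 5169 CPM, *Trpv5* 94.9 CPM and *Kl* 2218 CPM. These were near the levels of the DCT nuclei with at least 30 UMIs of *Slc8a1*. *S100g* was higher in late DCT nuclei than in those DCT nuclei, at 3550 against 1990.0 CPM. These are descriptions over the same mice, ordered by *Slc8a1* itself, with no test.

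*Egf* and *Umod*, which are abundant in TAL nuclei as well, took the opposite course. *Egf*, a magnesiotropic hormone precursor, averaged 7971, 6314, 5117 and 1728 CPM over the 4 rising ranges of *Slc8a1*. *Umod*, uromodulin, averaged 3025, 2647, 2755 and 560.4 CPM. *Pvalb* (572, 587, 594 and 407 CPM), *Trpm6* (2025, 2754, 2793 and 2139 CPM), *Klhl3* (1484, 1772, 1699 and 1623 CPM) and *Slc12a3* itself (13206, 13755, 14008 and 12115 CPM) differed less across the ranges. *Tfap2a* averaged 101, 86.7, 102 and 56.5 CPM.

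*Umod* counts over all DCT nuclei were above those in proximal tubule nuclei. Its level was 3145, 1709, 2978 and 1937 CPM in DCT nuclei, 241, 221, 271 and 90.1 CPM in proximal tubule nuclei and 7921, 8362, 10606 and 7389 CPM in TAL nuclei. It was seen in 88.3, 85.1, 87.2 and 76.8% of DCT nuclei and in 51.1, 49.7, 52.3 and 24.0% of proximal tubule nuclei, or thinned in 74.8, 64.7, 74.5 and 65.5% and in 22.2, 19.96, 23.7 and 9.35%. The TAL list as a whole, all 8 genes detected, summed to 3507, 2002, 3306 and 2228 CPM, and *Umod* gave 88.9% of it. DCT nuclei with at least 30 UMIs of *Slc8a1* averaged 560.4 CPM of *Umod*, and its excess over free RNA there was not tested. Endothelial nuclei had at least 5 UMIs of *Flt1*, *Emcn*, *Ptprb* and *Kdr* and the other limits of proximal tubule nuclei. In them the TAL list summed to 704, 823, 838 and 506 CPM, and *Umod* gave 60.2% of it. *Slc12a1*, the defining gene of that list and limited by the rule, was at 85.2, 109, 82.0 and 41.0 CPM in DCT nuclei and at 65.7, 56.9, 56.7 and 36.6 CPM in proximal tubule nuclei.

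**Figure D2:**
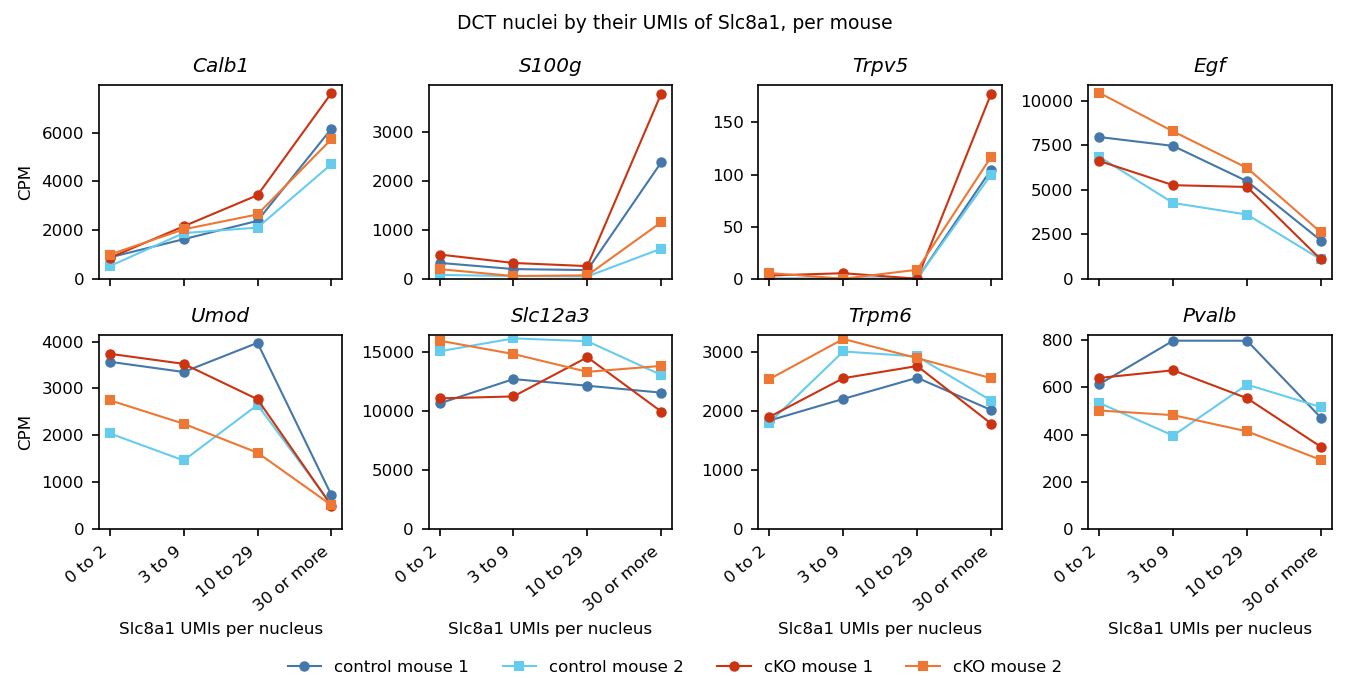
Genes along the range of *Slc8a1* among DCT nuclei. Each line is 1 mouse in CPM; *Calb1*, *S100g* and *Trpv5* are highest and *Egf* and *Umod* lowest in nuclei with 30 or more UMIs of *Slc8a1*.

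Do DCT nuclei make up a different share of the kidney slice when *Tfap2a* is deleted from the collecting duct? They formed 3.31% (95% Clopper-Pearson interval 2.92 to 3.73), 2.60% (2.19 to 3.06), 3.81% (3.404 to 4.26) and 3.35% (2.92 to 3.83) of the nuclei kept. Both cKO mice were above both controls, although control 1 and cKO 2 lay within each other's intervals. The intervals cover counting error only. The means were 2.95 ± 0.503% (SD, n = 2) and 3.58 ± 0.327% (SD, n = 2), a difference of 0.630 percentage points.

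With 2 mice against 2, the two-sided exact permutation test cannot give a p below 0.333, the value it gave here, so it could not decide whether the shares differed. Without control 1 the difference was 0.986 points and without control 2 it was 0.274 points. Without cKO 1 it was 0.399 points and without cKO 2 it was 0.861 points. With nuclei limited to under 1% mitochondrial UMIs it was 1.14 points, but only 21 DCT nuclei of control 1 were left. Among TAL, DCT, late DCT and CNT nuclei together, the DCT share was 13.9, 7.97, 18.0 and 11.5%, a difference of 3.79 points with overlapping groups. Counted among DCT and late DCT nuclei only, an alternative chosen after seeing the data, it was 83.4, 78.8, 82.2 and 72.6%, so that the difference turned to -3.66 points. Trimming of the cortex may also set how many DCT nuclei a slice holds, and its part in the shares was not tested.

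*Tfap2a*, the targeted gene, was detected in DCT nuclei of both genotypes. It was at 83.6, 83.2, 86.1 and 104 CPM, from 53, 29, 63 and 53 UMIs. The cKO mice were not below the controls. The log2 fold change was 0.15 (SE 0.31, n = 2 per group, adjusted p = 1.00 in edgeR), and its adjusted p lay between 0.991 and 1.00 over the alternatives. A 3′ count of UMIs does not check the genotype, because transcripts that have lost internal exons can still be counted.

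*Tfap2a* was seen in 17.2, 18.4, 17.0 and 19.3% of DCT nuclei and in 0.246, 0.103, 0.0913 and 0.149% of proximal tubule nuclei. Thinned, these shares were 8.80, 11.5, 9.52 and 8.87% and 0.0745, 0.0518, 0.0232 and 0.0301%. The UMIs of *Tfap2a* in DCT nuclei were thus well above free RNA. Its mean level was 6.22 CPM in TAL and 80.1 CPM in CNT nuclei. Late DCT nuclei had 145, 123, 62.8 and 65.5 CPM, from 21, 15, 13 and 16 UMIs, which is lower in both cKO mice but was not tested in so few nuclei.

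Among its relatives and the genes that the study followed, no gene passed. *Tfap2b*, the AP-2 factor of the TAL and DCT, was at 241, 407, 224 and 326 CPM (log2 fold change -0.26, SE 0.34), with overlapping groups; without control 2 its value was 0.19 and without cKO 1 it was 0.01. *Alcam*, a cell adhesion molecule, was at 14.2, 20.1, 12.3 and 7.81 CPM (-0.69, SE 0.60). *Wnt9b* had 8 UMIs over all 4 mice, too few for the test. *Tfap2c* had 0 UMIs in DCT nuclei.

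Which genes differed between genotypes in DCT nuclei? Only *Col5a2*, which encodes a chain of type V collagen, passed among 11608 genes, and it was higher in both cKO mice. No gene of DCT identity, of cotransporter control or of magnesium and calcium handling passed. The share of genes called was 0% lower and 0.00861% higher in cKO (edgeR quasi-likelihood test, adjusted p under 0.05). At an unadjusted p under 0.05 there were 127 genes lower (1.09%) and 111 higher (0.956%). DESeq2 called 0 genes, with 22 lower and 16 higher at an unadjusted p under 0.05.

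The count of genes moved with the handling of single libraries. With the replicate number as a block, 32 genes were lower and 8 higher. *Col5a2* kept its call. Of the other genes named below, *Gm15962*, *Psca*, *Gsdmc2*, *Npas3*, *Fgf9*, *Nrxn3*, *Zbtb16*, *Gm13305*, *Dbp*, *Arntl*, *Nr1d2* and *Tef* passed. Over 4575 genes, the deviations of the mice with number 1 from the mean of their genotype correlated between genotypes with r = 0.528, and the labels do not say what the number marks. Without control 1 the counts were 4 lower and 5 higher, without control 2 they were 7 and 4, without cKO 1 they were 25 and 8, and without cKO 2 they were 1 and 2. With no filter on low counts they were 7 and 4. In a fit that leaves out a mouse, the lone mouse of its group is assumed to vary like the pair of the other group.

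*Col5a2* (ENSMUSG00000026042; chromosome 1, 45374331 to 45503282 on GRCm38.p6, the assembly of mm10) had 1, 0, 51 and 52 UMIs in DCT nuclei, or 1.58, 0, 69.7 and 102 CPM. The UMIs came from 1, 0, 32 and 27 nuclei, and the top 5 nuclei held 21 of them in each cKO mouse. It was nearly silent in both controls and present in both cKO mice. The ratio of summed UMIs, 103 of 1244025 against 1 of 982811, was 81.4 with a 95% counting interval from 14.3 to 3245. Such an interval covers the counting error of pooled UMIs, not the spread between mice or nuclei. The fitted log2 fold change was 6.09 (SE 0.69, adjusted p = 0.0186), higher in all 4 pairs of a cKO and a control mouse.

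The call of *Col5a2* did not hold under every alternative, although its direction did. It was lost with DESeq2 (adjusted p = 0.0925), without TMM (0.0580), with edgeR's own filter on low counts (0.125), with *Slc12a3* of at least 2 UMIs (0.151), with 0 UMIs of *Slc12a1* (0.0888), without DCT nuclei that carried 10 or more proximal tubule UMIs (0.0670) and with free RNA subtracted (0.126). It held with each mouse left out. Over all alternatives the log2 fold change ran from 4.28 to 8.49 and the adjusted p from 1.21e-16 to 0.151.

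*Col5a2* was not particular to DCT nuclei. In TAL nuclei it had 2, 1, 190 and 199 UMIs, a ratio of 150.04 (counting interval 51.0 to 731). Late DCT nuclei had 1, 0, 0 and 2 UMIs, CNT nuclei 0, 0, 0 and 1, and proximal tubule nuclei 10, 6, 14 and 14 UMIs. The genotype change did not differ detectably between DCT and TAL nuclei (difference -0.59 on the log2 scale, SE 1.59, adjusted p = 0.994).

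The 4 other genes of smallest p that were higher in cKO did not pass. *Nrxn3*, a synaptic adhesion molecule, was at 37.8, 11.5, 176 and 139 CPM (log2 fold change 2.52, SE 0.42, adjusted p = 0.305), so that both cKO mice were above both controls. Its adjusted p was 0.000159 without control 1, 0.0376 without control 2, 0.000234 without cKO 1 and 2.26e-06 without cKO 2, within a range from 4.23e-14 to 1.00 over the alternatives. *Zbtb16*, a zinc finger factor induced by glucocorticoids, was at 26.8, 40.1, 92.9 and 146 CPM (1.84, SE 0.39, adjusted p = 0.959). It passed without control 2 (0.0376) and without cKO 1 (0.000885), within a range from 4.98e-06 to 1.00. *Diaph3* had 0, 0, 9 and 5 UMIs (adjusted p = 1.00), of which 7 of the 9 lay in 1 nucleus. *Gm13305*, a member of a family of near-identical gene copies to which 3′ reads cannot be assigned with certainty, had 0, 0, 11 and 10 UMIs (adjusted p = 1.00; 0.0156 with the block and 0.0219 with no filter on low counts, and 1.00 the highest over the alternatives).

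The 5 genes of smallest p that were lower in both cKO mice did not pass either. *Fgf9*, a secreted growth factor, was at 203, 252, 91.5 and 115 CPM (-1.17, SE 0.30, adjusted p = 1.00; 7.81e-05 with the replicate number as a block, the lowest of the alternatives, and 1.00 the highest) and was seen in 95, 60, 52 and 42 nuclei. *Gm15962*, an unnamed transcript, was at 75.7, 100.4, 20.5 and 13.7 CPM (-2.33, SE 0.40, adjusted p = 0.305). It was also lower in both cKO mice in TAL nuclei (52.3, 54.5, 23.0 and 32.3 CPM) and in proximal tubule nuclei (433, 761, 156 and 316 CPM), where it was more abundant. It passed without control 1 (0.0116), without control 2 (0.0376) and without cKO 1 (0.00303), within a range from 2.90e-07 to 1.00.

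The remaining genes of that direction rested on few UMIs. *Psca*, a cell surface antigen, had 25, 15, 2 and 4 UMIs (-3.04, SE 0.58, adjusted p = 0.505), of which 24 of 25 in control 1 lay in the top 5 nuclei and all 15 of control 2 in 1 nucleus. It passed without control 2 (0.0402) and without cKO 2 (0.00978), within a range from 7.81e-05 to 1.00. *Gsdmc2*, a gasdermin gene, had 12, 10, 0 and 0 UMIs in 3, 2, 0 and 0 nuclei (adjusted p = 0.505). It passed without control 1 (0.0186) and without control 2 (0.0376), within a range from 0.000331 to 1.00. *Npas3* had 20, 1, 0 and 0 UMIs in 12, 1, 0 and 0 nuclei (adjusted p = 1.00) and passed without control 2 (0.000397), within a range from 0.000397 to 1.00.

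Markers of the DCT did not differ detectably. Of the 9 list genes outside the rule, 0 were called, 0 had an unadjusted p under 0.05, and the median log2 fold change was -0.04, against -0.01 over all genes tested. In 1 of the 9, *Tmem52b*, both cKO mice were above both controls, and in 0 both were below, against 15.7 and 12.6% of all genes tested. The log2 fold changes were 0.10 for *Trpm6* (SE 0.34), -0.21 for *Pvalb* (SE 0.30) and 0.18 for *Tmem52b* (SE 0.29). That of *Trpm6* turned to -0.03 without control 1 and to -0.10 without cKO 2, and that of *Pvalb* to 0.15 with nuclei under 1% mitochondrial UMIs. *Cnnm2*, a magnesium transport regulator, was at 667, 1204, 810.1 and 1084 CPM, with overlapping groups.

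The kinase pathway that sets cotransporter activity held no gene that passed. *Wnk4* was at 513, 579, 455 and 611 CPM, *Stk39*, which encodes SPAK, at 793, 955, 792 and 984 CPM, and *Klhl3* at 1499.8, 1795, 1391 and 1746 CPM. *Wnk1* was at 5222, 6404, 5419 and 7923 CPM. In each of these genes the groups overlapped. Of the 14 genes of the list, 13 were tested, 0 were called, 0 had an unadjusted p under 0.05, and in 0 did the groups stand apart, against 12.6 and 15.7% of all genes tested below and above (median -0.01). *Oxsr1*, like *Cox4i1* and *Per3* of other lists, had 0 UMIs in all nuclei kept, so its expression could not be judged.

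Transport across the basolateral membrane accompanies uptake through the cotransporter. *Kcnj10* and *Kcnj16*, which form the potassium channel of this membrane, were at 145, 184, 178 and 213 CPM and at 826, 923, 900.3 and 1008 CPM, both with overlapping groups. Of the 10 genes of this basolateral list 9 were tested, with 0 called, 0 at an unadjusted p under 0.05, 1 below and 2 above in both cKO mice (against 12.6 and 15.7% of all genes tested), and a median of 0.11.

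Magnesium genes other than *Trpm6* were led by *Egf*, at 6671, 4456, 5082 and 7453 CPM with overlapping groups. *Cnnm3* was at 41.0, 48.8, 19.1 and 25.4 CPM, lower in both cKO mice (-1.03, SE 0.41, adjusted p = 1.00; 0.505 to 1.00 over the alternatives). It was the gene of the list with an unadjusted p under 0.05. Of 13 genes 11 were tested, with 0 called, 1 below and 2 above in both cKO mice (against 12.6 and 15.7% of all genes tested), and a median of 0.10. *Kcna1* had 0 UMIs in DCT nuclei.

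No calcium gene passed. *Calb1* was at 2022, 1953, 2729.5 and 2541 CPM (0.38, SE 0.32), *Slc8a1* was at the levels given above (0.23, SE 0.40) and *Trpv5* was at 15.8, 17.2, 35.5 and 27.3 CPM (0.93, SE 0.46). In these genes both cKO mice were above both controls. *S100g* was at 589.8, 158, 1034 and 330.1 CPM and separated the replicate numbers, not the genotypes. Of 13 genes 12 were tested, with 0 called, 0 at an unadjusted p under 0.05, 0 below and 4 above in both cKO mice (against 12.6 and 15.7% of all genes tested), and a median of 0.09. The share of DCT nuclei with at least 30 UMIs of *Slc8a1*, given above, was also higher in both cKO mice, and its part in these values was not tested.

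Clock genes held the most genes at an unadjusted p under 0.05 of all lists, and in several of them cKO 2 was the extreme mouse. The gene lists were chosen with earlier results of these data known, so this count is given as a description. *Arntl*, the activator of the clock, was at 74.1, 109, 46.4 and 5.86 CPM (-1.70, SE 0.57) and *Per2*, a repressor, at 29.96, 28.7, 30.1 and 127 CPM (1.34, SE 0.59). In both genes cKO 2 stood apart from the other 3 mice. *Dbp* was at 12.6, 2.87, 35.5 and 37.1 CPM (1.98, SE 0.55) and *Cry2* at 7.89, 5.74, 24.6 and 39.1 CPM (2.09, SE 0.58), high in both cKO mice. *Nr1d2* was at 48.9, 34.4, 76.5 and 131 CPM (1.24, SE 0.38) and *Tef* at 77.3, 28.7, 86.1 and 219 CPM (1.41, SE 0.49). *Npas2*, a partner of the clock activator, was at 31.5, 43.0, 21.9 and 5.86 CPM (-1.31, SE 0.54), and *Cry1* at 0, 2.87, 5.46 and 21.5 CPM.

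Of 19 clock genes 16 were tested and 0 were called, while 2 were lower and 6 higher at an unadjusted p under 0.05, against 1.09 and 0.956% of all genes tested. Both cKO mice were below both controls in 4 and above in 8, against 12.6 and 15.7% of all genes tested, and the median was 0.66, against -0.01 over all genes. Leaving out cKO 1 brought *Arntl* (-3.89, adjusted p = 2.95e-05), *Per2* (2.09, 0.00167), *Nr1d2* (1.60, 0.0465) and *Tef* (1.95, 0.00132) past the threshold, as leaving out control 1 did for *Tef* (2.35, 0.0463). Without cKO 2 the change of *Per2* was -0.00213. With the replicate number as a block, *Arntl* (0.000222), *Tef* (0.00206), *Nr1d2* (0.0268) and *Dbp* (0.0383) passed, and *Arntl* also did with no filter on low counts (0.0440). Their adjusted p in all mice was 1.00, and the highest over the alternatives was 1.00 for each. *Arntl* was also lowest in cKO 2 in TAL nuclei (29.8, 29.4, 15.9 and 4.23 CPM) and CNT nuclei (104, 189.7, 69.4 and 20.3 CPM). The labels give no time of day at which the kidneys were taken.

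No gene that responds to glucocorticoids passed. *Tsc22d3*, an induced leucine zipper gene, was at 45.7, 28.7, 69.7 and 91.8 CPM (1.03, SE 0.36) and *Zbtb16* has been given, and *Fkbp5*, an induced chaperone of the receptor, was at 260.2, 218, 299 and 338 CPM (0.38, SE 0.28). All 3 were higher in both cKO mice, as was *Per1*. *Klf9*, *Ddit4*, *Errfi1* and *Pdk4* of the same list were lower in both cKO mice. *Klf9* was seen in 30.1, 31.9, 26.9 and 25.6% of DCT nuclei. Of 13 genes 12 were tested, with 0 called, 0 lower and 2 higher at an unadjusted p under 0.05 (against 1.09 and 0.956% of all genes tested), 4 below and 4 above in both cKO mice (against 12.6 and 15.7% of all genes tested), and a median of -0.08. Immediate early and stress genes had 12 of 17 tested, with 0 called, 0 at an unadjusted p under 0.05, 3 below and 0 above beside the same shares, and a median of -0.09. *Fosb* had 0 UMIs.

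**Figure D3:**
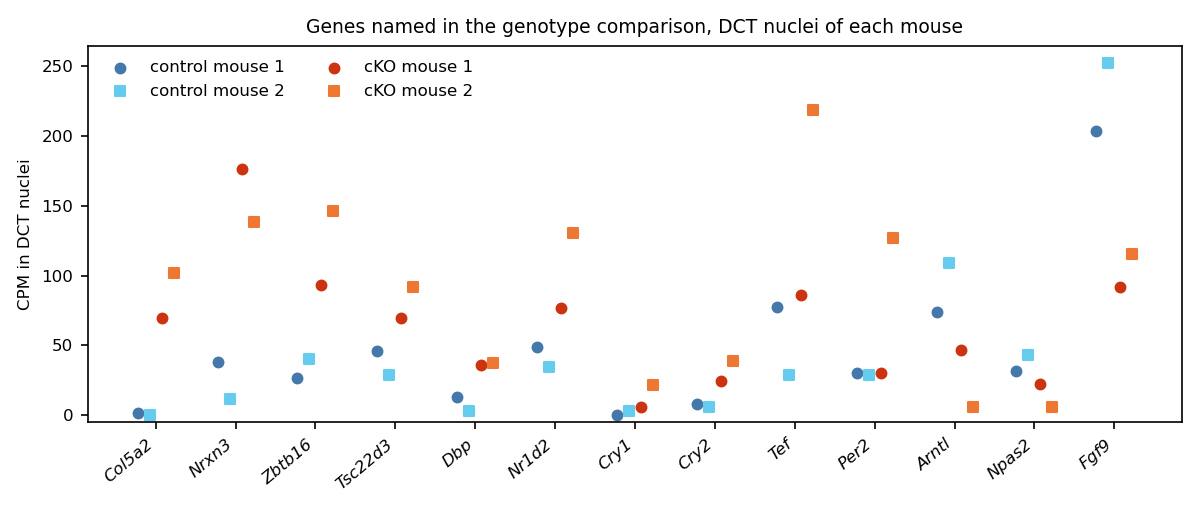
Genes named in the genotype comparison. Each point is the level of 1 mouse in DCT nuclei in CPM; only *Col5a2* passed the test.

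The other lists held 0 calls in the same edgeR test. Their counts stand beside 1.09% lower and 0.956% higher at an unadjusted p under 0.05, and 12.6% below and 15.7% above in both cKO mice, over all genes tested. Transcription factors of the distal nephron had 20 of 22 genes tested, with 0 at an unadjusted p under 0.05, 1 below and 0 above in both cKO mice, and a median of -0.10. *Esrrg*, an orphan receptor of the segment, was at 4808, 5371, 4639 and 5632 CPM. AP-2 factors and their cofactors had 5 of 9 tested, 0 at that p, 1 below and 1 above and a median of -0.26, and *Cited4* had 0 UMIs. Wnt and adhesion genes, *Wnt9b* and *Alcam* of the study among them, had 12 of 15 tested and a median of -0.23, with 3 below and 1 above. The 2 of them at an unadjusted p under 0.05 were the integrins *Itga3* (29.96, 31.5, 13.7 and 15.6 CPM; -1.09, SE 0.46) and *Itgb6* (211, 195, 149 and 95.7 CPM; -0.75, SE 0.31), lower in both cKO mice, and *Lgr5* had 0 UMIs.

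Structural and housekeeping lists held no gene at an unadjusted p under 0.05. Tight junction claudins had 9 of 11 genes tested, 0 at an unadjusted p under 0.05, 0 below and 2 above (against 12.6 and 15.7% of all genes tested), and a median of 0.08. Nuclear-encoded genes of the respiratory chain had 19 of 20 tested, 0 at that p, 0 below, 0 above and a median of 0.10. Summed, that list was at 5901, 3768, 6637 and 3824 CPM, higher in the libraries with replicate number 1, in which mitochondrial UMIs were higher as well. *Cox4i1* had 0 UMIs in all nuclei kept, so its expression could not be judged.

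No gene of the injury and division lists passed. Injury genes had 6 of 12 tested, 0 at an unadjusted p under 0.05, 1 below and 2 above (against 12.6 and 15.7% of all genes tested) and a median of -0.14. *Havcr1* had 6 UMIs and *Lcn2* 4 over all DCT nuclei, and *Krt20* had 0. The list summed to 1522, 981, 1482 and 814 CPM in DCT nuclei and to 276, 137, 241 and 203 CPM in proximal tubule nuclei. Most of it was *Spp1*, osteopontin, at 1284, 739.9, 1128 and 582 CPM in DCT nuclei, higher with replicate number 1. Of the 11 division genes 3 were tested, with 0 below and 1 above and a median of 1.33. *Top2a*, at an unadjusted p under 0.05, had its 10 UMIs in cKO 1 alone, in 0.328% of the DCT nuclei of that mouse. *Mki67* had 4 UMIs and *Ccnb1* 0.

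Markers of other cell types were tested in the same way, in part as a measure of foreign RNA. *Umod* and *Slc8a1*, which dominate the TAL and CNT lists, were far more abundant in DCT than in proximal tubule nuclei. Those lists therefore do not measure foreign RNA alone. Proximal tubule markers had 10 of 10 genes tested, 0 at an unadjusted p under 0.05, 0 below and 0 above (against 12.6 and 15.7% of all genes tested), and a median of -0.18. TAL markers outside the rule had 4 of 7 tested with 0 at that p and a median of 0.11, and thin limb markers 1 of 6, with -0.08. Thin limb genes, all 6 detected, summed to 527, 387, 261 and 619 CPM, of which *Cryab* gave 96.6%.

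CNT and principal cell markers held no gene that passed. CNT markers, 5 of 7 detected and *Scnn1b* and *Scnn1g* at 0 by the rule, summed to 11679.5, 11697.5, 15429 and 13103 CPM, of which *Slc8a1* gave 79.2%. All 5 were tested, with 1 at an unadjusted p under 0.05, *Slc2a9* (34.7, 54.5, 62.8 and 99.6 CPM; against 0.956% of all genes tested for such higher genes), 0 below and 4 above in both cKO mice (against 12.6 and 15.7% of all genes tested) and a median of 0.38. Principal cell markers, 7 of 8 detected, summed to 88.3, 132, 138 and 184 CPM, and *Aqp2*, aquaporin-2, gave 51.9% of them. Of 7 outside the rule 5 were tested, with 0 below and 2 above and a median of 0.81, and the 2 at an unadjusted p under 0.05 were *Aqp2* (48.9, 48.8, 72.4 and 104 CPM; 0.81, SE 0.34) and *Aqp4* (3.15, 8.60, 12.3 and 35.2 CPM; 2.06, SE 0.79). In cKO 1, 21 of the 53 UMIs of *Aqp2* lay in 1 nucleus, and in cKO 2, 33 of 53 did. Of *Aqp4*, 1 nucleus held 8 of the 9 UMIs in cKO 1 and 1 nucleus held 16 of the 18 in cKO 2. By comparison, the principal cell list summed to 126, 153, 97.0 and 84.7 CPM in proximal tubule nuclei. The part of such nuclei in the results was not tested.

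Remaining cell types left few UMIs. Intercalated cell markers, all 8 detected, summed to 80.4, 8.60, 129.8 and 25.4 CPM, led by *Slc26a4*, with 4 tested, 0 at an unadjusted p under 0.05 and a median of 0.42. Endothelial markers, 5 of 6 detected and *Egfl7* at 0, summed to 89.9, 22.9, 87.4 and 37.1 CPM, led by *Flt1*, with 5 tested, 0 at that p and a median of 0.12. Both lists were higher in the libraries with replicate number 1. Immune markers, 4 of 6 detected and *Cd3e* and *Dock2* at 0, summed to 18.9, 43.0, 42.4 and 17.6 CPM, led by *Cd74*, with 2 tested, 0 at that p, 1 below (against 12.6% of all genes tested) and a median of -0.08. Interstitial markers, 5 of 7 detected and *Col1a1* and *Col1a2* at 0, summed to 12.6, 2.87, 8.20 and 3.91 CPM, led by *Meis1*, with 0 tested. Podocyte markers, all 6 detected, summed to 20.5, 17.2, 13.7 and 7.81 CPM, led by *Podxl*, with 1 tested and a median of -0.04.

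Was the genotype change in DCT nuclei different from that in the segments on either side? Against TAL nuclei, 0 of 11570 genes passed the test of the difference (0%; edgeR), with 222 lower and 283 higher in DCT nuclei at an unadjusted p under 0.05. DESeq2 also called 0, with 23 and 36. Against CNT nuclei, 2 of 9898 genes passed (0.0202%), *Psca* and *Zbtb16*, with 255 lower and 184 higher at an unadjusted p under 0.05, and DESeq2 called 0, with 23 and 23. Without cKO 1 the counts against CNT nuclei stayed at 1 lower and 1 higher. Without control 1 the counts against CNT nuclei were 0 lower and 0 higher, without control 2 they were 3 and 3, and without cKO 2 they were 0 and 2. Against TAL nuclei they were 5 and 3 without control 1 and 3 and 4 without control 2.

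*Zbtb16* (ENSMUSG00000066687; chromosome 9, 48651797 to 48836225) was at 26.8, 40.1, 92.9 and 146 CPM in DCT nuclei and at 74.0, 121, 50.3 and 64.8 CPM in CNT nuclei. The cKO mice were above the controls in DCT nuclei and below them in CNT nuclei. The difference of the changes was 2.48 on the log2 scale (SE 0.46, adjusted p = 0.0157). TAL nuclei had 126, 91.2, 196 and 304 CPM, higher in both cKO mice as in DCT nuclei. CNT counts were small, with 22, 21, 21 and 16 UMIs. The call was lost with DESeq2 (adjusted p = 1.00), with nuclei under 1% mitochondrial UMIs (0.0743), without control 1 (0.179) and without cKO 2 (0.109), within a range from 0.00134 to 1.00.

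*Psca* (ENSMUSG00000022598; chromosome 15, 74714839 to 74717065) was at 39.4, 43.0, 2.73 and 7.81 CPM in DCT nuclei and at 26.9, 69.0, 26.3 and 122 CPM in CNT nuclei. It was lower in both cKO mice in DCT nuclei, and the groups overlapped in CNT nuclei. The difference was -3.67 (SE 0.70, adjusted p = 0.0157). It rested on the few nuclei described above. The call was lost with DESeq2 (adjusted p = 1.00), without control 1 (0.340) and without cKO 2 (0.878), within a range from 0.000229 to 1.00.

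The other genes of smallest p in these tests did not pass. Against CNT nuclei they were *Slc5a12*, *Slc13a1*, *Cyp2j13* and *Maoa* in the lower direction, and *Erbb4*, *Igfbp3*, *Rbfox1* and *Ifitm3* in the higher direction. Their adjusted p in edgeR lay between 0.0783 and 0.232. *Slc5a12* belongs to the proximal tubule markers, which summed to 2080, 471, 2401 and 1289 CPM in CNT nuclei. The part of such foreign RNA in these differences was not tested. *Erbb4*, an epidermal growth factor receptor family member, was at 1799, 1916, 1284 and 1404 CPM in DCT nuclei and at 367, 563, 50.3 and 203 CPM in CNT nuclei, lower in both cKO mice in each kind. Its adjusted p was 3.37e-05 without cKO 2, within a range to 1.00. *Slc5a12* passed without control 2 (0.0437; 0.0200 to 1.00) and *Rbfox1* without cKO 2 (0.0218; 0.0218 to 1.00).

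Against TAL nuclei the genes of smallest p were *Rtl4*, *Lrrc4c*, *Gsdmc2*, *Apoe* and *Slc5a12* in the lower direction and *Sgcz*, *Aqp2*, *Aqp4*, *Irs1* and *Gclc* in the higher, with adjusted p between 0.117 and 0.805. *Sgcz*, a sarcoglycan, was at 7.89, 17.2, 2.73 and 17.6 CPM in DCT nuclei and at 1603, 1679.7, 42.0 and 84.8 CPM in TAL nuclei. Its groups overlapped in DCT nuclei and stood far apart in TAL nuclei. The difference of its changes passed without control 1 (adjusted p = 0.00338) and without control 2 (5.38e-06), within a range from 3.62e-06 to 1.00. *Rtl4* passed without control 1 (0.000466; highest 1.00). Without control 2, the adjusted p was 0.0352 for *Lrrc4c*, 1.80e-06 for *Apoe*, 0.0352 for *Slc5a12*, 8.07e-07 for *Aqp2* and 0.00628 for *Aqp4*, with 1.00 the highest over the alternatives for each. Most cKO UMIs of *Aqp4* in DCT nuclei, as given above, lay in 1 nucleus per mouse, as did many of those of *Aqp2*.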

How the data were processed

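Per the labels and the deposited file headers, the authors made 10x 3′ libraries and raw UMI counts with Cell Ranger 3.0.2 against mm10. The counts had no normalization and covered 31053 genes in 6794880 barcodes. Their own analysis used Seurat. The members and gene lists were chosen with earlier results of these data known.

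Of every library, the top 10000 barcodes by UMIs were considered; a nucleus was kept if it had more than 500 but fewer than 4000 genes, with mitochondrial UMIs below 5%. No doublet caller was run; an alternative left out DCT nuclei with 10 or more UMIs of the proximal tubule markers. UMIs were summed per mouse. The test by edgeR 4.0.16 took every gene whose UMIs reached 10 when summed across mice (R 4.3.3; TMM, quasi-likelihood, Benjamini-Hochberg over all genes tested, adjusted p under 0.05). The SE was taken from the log2 fold change and its F statistic. Differences between kinds of nuclei were tested as an interaction with mouse as a term, for genes that reached that sum in both kinds. Shares were tested by an exact permutation test (SciPy 1.17.1, Python 3.11.15).

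TAL nuclei had at least 3 UMIs of *Slc12a1* and 0 of *Slc12a3*, *Scnn1b* and *Scnn1g*. CNT nuclei had at least 1 UMI of *Scnn1b* or *Scnn1g*, at least 3 of *Calb1* and *Slc8a1*, and at most 2 each of *Slc12a3*, *Slc12a1* and *Aqp2*. Proximal tubule nuclei had at least 10 UMIs of *Lrp2*, *Slc34a1*, *Slc5a12*, *Slc27a2* and *Slc7a13*, at most 2 of each cotransporter, and 0 of *Scnn1b* and *Scnn1g*.

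Named were the markers, the targeted gene with *Tfap2b*, *Wnt9b* and *Alcam*, up to 15 passing genes per direction or, below 5, those of smallest p up to 5, members of the gene lists, and the 20 leading genes. Alternatives were DESeq2 1.42.0, no TMM, other filters on low counts, replicate number added as a block, each mouse left out with the lone sample of its group assumed to vary like the other group, other limits on *Slc12a3*, *Slc12a1* and mitochondrial UMIs, free RNA subtracted, and an adjusted p under 0.1.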

Additional observations from a re-analysis of the deposited data

Results flagged for a closer look

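The genotype change of 2 genes differed between DCT and CNT nuclei by the test of the interaction of genotype and kind of nucleus in edgeR. For *Zbtb16* the change in DCT nuclei minus that in CNT nuclei was 2.48 on the log2 scale. For *Psca* it was -3.67, but few nuclei carried its UMIs in DCT: 1 nucleus held all 15 in control 2, and in control 1 the top nucleus held 14 of 25 and the top 5 held 24. Both had an adjusted p of 0.0157, and both lost the call with DESeq2 (adjusted p = 1.00 for each), without control 1 (0.179 and 0.340) and without cKO 2 (0.109 and 0.878). Over the alternatives the adjusted p ran from 0.00134 to 1.00 for *Zbtb16* and from 0.000229 to 1.00 for *Psca*.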

How the results depend on the processing

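In DCT nuclei 0 genes were lower and 1 higher in cKO. With no filter on low counts the counts were 7 and 4, with the replicate number as a block, which pairs mice by a number whose meaning the labels do not give, 32 and 8, and with nuclei under 1% mitochondrial UMIs 2 lower. The count of higher genes was 0 with DESeq2, no TMM, edgeR's own filter, *Slc12a3* of at least 2 UMIs, 0 UMIs of *Slc12a1*, proximal tubule UMIs left out and free RNA subtracted. Leaving out a mouse gave 1 to 25 lower and 2 to 8 higher.

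For the difference from TAL nuclei (0 lower, 0 higher), no filter gave 3 and 7, 0 UMIs of *Slc12a1* 2 and 2, mitochondrial UMIs under 1% 1 lower, and leaving out a mouse 0 to 5 and 0 to 4. For CNT nuclei (1 and 1), DESeq2 gave 0 and 0, no filter 2 and 3, 0 UMIs of *Slc12a1* 2 and 2, mitochondrial UMIs under 1% 2 lower, an adjusted p under 0.1 2 lower, and leaving out a mouse 0 to 3 and 0 to 3.

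The difference in share ran from 0.274 to 0.986 points with a mouse left out and turned to -3.66 among DCT and late DCT nuclei, an alternative chosen after seeing the data. Leaving out a mouse turned *Tfap2b* (-0.60 to 0.19, with 0.01 without cKO 1), *Trpm6* (-0.10 to 0.30, with -0.03 without control 1) and *Per2* (-0.00213 to 2.09). Mitochondrial UMIs under 1% turned *Pvalb* (0.15) and the difference of *Lrrc4c* from TAL nuclei (0.36). Of the other values of named genes under an alternative, 561 kept their direction and their side of the threshold, 67 passed it and 14 no longer did. The cause was not tested.

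Among the 11608 genes tested with 2 mice per group, *Nrxn3* did not pass at a log2 fold change of 2.52 (SE 0.42). Its adjusted p in edgeR was 0.305, and it ran from 4.23e-14 to 1.00 over the alternatives. Late DCT nuclei, 233 in all, were only described.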
